A study of Rattus norvegicus with 4 samples.

Results

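Spliced long non-coding RNA (lncRNA) transcripts of the NONCODE catalogue that overlap other catalogued transcripts were described in neonatal rat cardiomyocytes, by their level and by their share of the reads of their locus. A member carried a NONCODE rat identifier (prefix NONRATT) and was listed, that is, had at least 1 read, in the 24 h normal glucose library. It was at least 200 nt long, its genomic span exceeded its length by more than 15 nt, which marks it as spliced, and it averaged at least 1 FPKM over the 4 libraries. At least 1 other listed transcript had to overlap its span on the same chromosome. Of 17934 listed transcripts, 1883 met the rule, at 1187 of 14501 loci, and 6 further transcripts within a stretch of chromosome 13 were left out. FPKM is the read count scaled to transcript length and library total, and a locus is a run of listed transcripts chained together by overlapping spans (1 base or more), without regard to strand or exons. The lowest member averaged 1.0006 FPKM and the nearest spliced NONCODE transcript with an overlapping partner below the limit averaged 0.9987 FPKM.

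A gene can give several transcript isoforms through alternative start sites, splice sites and ends, so the output of a locus can change in total, in the mixture of its isoforms, or in both. LncRNAs do not encode proteins and many act from the site of their transcription, and which exons an isoform carries can decide which proteins or nucleic acids it binds. Catalogues such as NONCODE collect lncRNA transcripts from many sources, and overlapping entries can be isoforms of the same gene, neighbours, or transcripts of opposite strands.

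Primary cardiomyocytes came from newborn Sprague-Dawley rats (age 1 to 2 days) and were kept in M199 medium with added carnitine, creatine and taurine. The high glucose medium (HG) held 33 mmol/l glucose, and the normal glucose medium (NG) held 5 mmol/l glucose with 28 mmol/l mannitol to match the osmolality. Total RNA was sequenced after 24 h or 48 h, with 1 library for each of the 4 combinations. No label describes separate cultures behind a library, so differences between 2 libraries have no replicate check, and intervals cover counting error only. The tables hold lncRNA identifiers with no gene names, so cardiomyocyte and other cell type markers were not analysed here. No identifier was found in RefSeq's gene table, which is of another rat assembly. Positions are those of the rat build rn6.

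Library totals recovered from the FPKM values lay between 11877876 and 15654183, and the lncRNA counts summed to between 846946 and 1075428. The members took between 23.0% and 24.6% of these lncRNA counts, or 208083 to 250966 reads per library. Their mean count had a median of 30.0 reads, 661 members averaged under 20 reads, and 393 averaged at least 100.

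The members lay on 21 chromosomes, from 241 on chromosome 1 to 25 on chromosome 20. Their median length was 745 nt and their median span 5395 nt, against 682 nt and 3522 nt for the 1765 transcripts that met every other criterion but stood alone at their locus. Their median level was 2.82 FPKM, against 2.47 FPKM for the transcripts standing alone and 2.86 FPKM for all 7321 measured transcripts (any identifier, with the same limits on length and mean FPKM). 33 members were among the 100 transcripts of highest mean FPKM. Most member loci were small. 676 held 2 listed transcripts, 274 held 3, 115 held 4 and 122 held 5 or more. The other transcripts at these loci, called companions here, numbered 1541, of which 877 were spliced NONCODE entries, 611 were NONCODE entries of a single block, 34 were Ensembl entries and 19 were assembled transcripts. 340 of the companions averaged at least 1 FPKM.

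1844 members were listed in all 4 libraries. The rule required every member to be listed in NG at 24 h, and 1873, 1867 and 1860 of them were listed in HG at 24 h, NG at 48 h and HG at 48 h. A member at 0 can therefore be so only outside NG at 24 h, which tilts counts of lower members in the 2 comparisons that start from that library.

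The 5 members of highest mean FPKM lay at loci that they largely made up themselves. NONRATT007996.2 (chromosome 12, 39957131 to 39959077, 217 nt) stood at 3924 FPKM in NG and 3469 FPKM in HG at 24 h, and at 3803 FPKM in NG and 1207 FPKM in HG at 48 h. Only the library of HG at 48 h was low. Its companion NONRATT007997.2 had 32, 38, 42 and 30 reads in the same order, so the share of NONRATT007996.2 in the locus reads lay between 99.2% and 99.7% although its level was 3.15-fold lower in HG at 48 h (95% counting interval 3.04 to 3.27). NONRATT011827.2, NONRATT007735.2 and NONRATT011223.2, with mean levels of 521, 218 and 190 FPKM, also held at least 94.9% of their locus reads in each library. NONRATT021428.2 (chromosome 4, 81237083 to 81243700) shared its locus with 7 further members. It held 53.5% and 58.9% of the locus reads in NG and HG at 24 h, and 55.9% and 60.1% at 48 h. NONRATT021422.2 followed with 18.5% to 22.3% and NONRATT021427.2 with 17.0% to 19.8%, so the order of the 3 largest isoforms by reads was the same in every library. Per length the order differed, because NONRATT021427.2 is the shorter, and stood at 69.4 to 118 FPKM against 27.1 to 48.8 FPKM for NONRATT021422.2.

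At 330 loci with at least 100 reads in every library, which held 721 members, the transcript of highest FPKM took a median of 73.7% of the summed FPKM of its locus (quartiles 54.0% and 89.7%). The same transcript was on top in all 4 libraries at 271 of these loci (82.1%), and at 270 loci the top transcript was a member in every library. At 59 loci the top transcript differed between libraries. At 33 of them the FPKM share of a top transcript also ranged over at least 20 percentage points. The top transcript separated the media at 2 of the 59 loci and the times at none. At 10 loci it was shared by NG at 24 h with HG at 48 h and by HG at 24 h with NG at 48 h. A single library differed from the other 3 at the remaining loci with 2 tops, which was NG at 24 h at 5 of them, HG at 24 h at 9, NG at 48 h at 9 and HG at 48 h at 17. 7 loci had at least 3 different top transcripts. Leaving out any 1 library left 42 to 54 loci where the top differed.

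Levels were compared as log2 (CPM + 1), where CPM is the read count scaled to the library total. A difference of 1 on this scale is 2-fold in CPM + 1, and the counts beyond 2-fold refer to it. The added 1 CPM shrinks ratios at low levels, so a low member must change by more than 2-fold in CPM to be counted. With 0.1 CPM added, 235, 396, 233 and 416 members passed in the 4 comparisons, in the order below. In HG against NG at 24 h, 50 members were higher and 68 lower by at least 2-fold, 6.27% of the members. The same limit was passed by 4.89% of all measured transcripts (2.34% higher and 2.55% lower) and by 4.93% of the transcripts standing alone. At 48 h, 62 members were higher and 103 lower, 8.76%, against 7.17% of all measured transcripts (2.85% higher and 4.32% lower) and 6.86% of those alone. From 24 h to 48 h in NG, 40 were higher and 71 lower, 5.89%, against 4.67% (2.02% higher and 2.65% lower) and 4.25%. From 24 h to 48 h in HG, 61 were higher and 123 lower, 9.77%, against 6.91% (2.57% higher and 4.34% lower) and 7.03%. The share of members beyond 2-fold was thus above both others in each comparison. The 4 comparisons share libraries, and this difference was not tested.

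The median member changed by -0.04 log2 with glucose at 24 h and by -0.12 at 48 h, against -0.04 and -0.14 over all measured transcripts. With time it changed by -0.01 in NG and by -0.10 in HG, against 0.01 and -0.09. Where the libraries were scaled by TMM factors, the median member with glucose at 48 h moved to 0.01, a shift of over 0.1, and the members beyond 2-fold were 83 higher and 82 lower in place of 62 and 103. For time in HG the same scaling gave 80 higher and 105 lower in place of 61 and 123. The excess of lower over higher members with glucose at 48 h therefore depends on how the libraries are scaled. With time in HG the excess was smaller but remained, also with libraries rescaled to the same lncRNA sum (74 higher and 108 lower). The number of members beyond 2-fold was 165 under both scalings with glucose and 184 and 185 with time.

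Among the 1187 locus totals, which contain the members' reads, 20 were higher and 29 lower by at least 2-fold with glucose at 24 h (4.13%), and 29 were higher and 62 lower at 48 h (7.67%). With time, 17 were higher and 27 lower in NG (3.71%), and 29 were higher and 69 lower in HG (8.26%). The difference from the members' shares was not tested. No figures over all loci stand beside these counts, so they are not shown to be particular to loci with members.

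**Figure D1:**
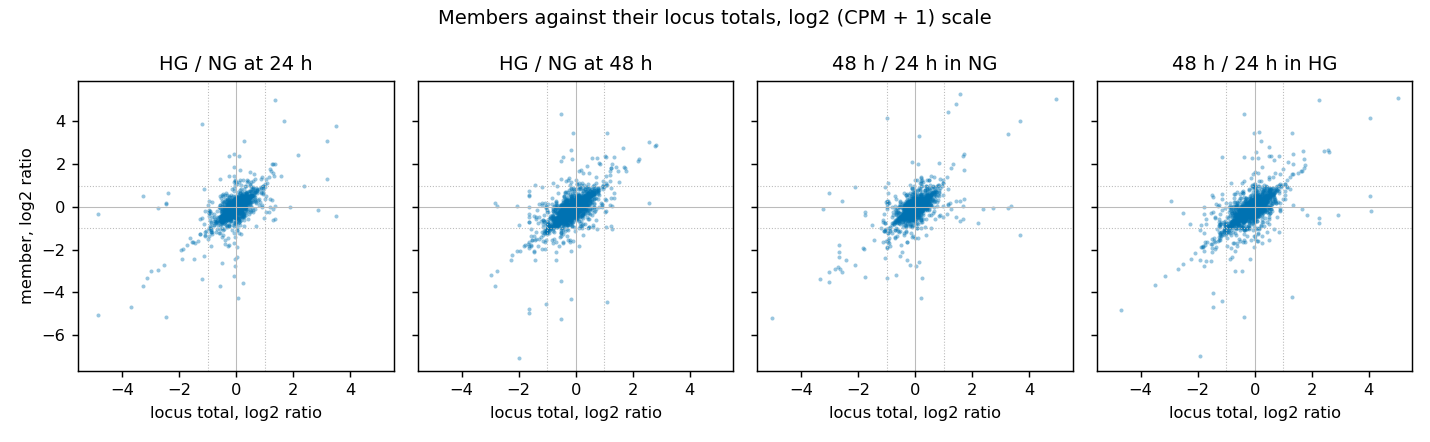
Log2 ratio of each member (vertical axis, log2 (CPM + 1)) against the log2 ratio of its locus total (horizontal axis) in the 4 comparisons, with dotted lines at 2-fold. Most of the 1883 members lie near the diagonal or the centre, and the points above and below the centre with a locus ratio near 0 are members whose locus total stayed within 2-fold.

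Of the 118 members beyond 2-fold with glucose at 24 h, 44 lay at loci whose total moved at least 2-fold the same way, 73 at loci whose total stayed within 2-fold, and 1 at a locus that moved 2-fold the other way. At 48 h the 3 counts were 80, 82 and 3 of 165. With time they were 37, 73 and 1 of 111 in NG, and 83, 99 and 2 of 184 in HG. A member that makes up nearly all of a locus must move with it, and the values follow that arithmetic. Members that moved with their locus held a median of 87.9% to 90.7% of the locus reads in whichever library their share was higher, and those at loci within 2-fold held a median of 34.8% to 48.2%. Among the latter, a companion or other member moved at least 2-fold the opposite way in 20 and 22 cases with glucose at 24 h and 48 h, and in 14 and 22 cases with time in NG and HG.

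Read shares were compared at loci with at least 100 reads in both libraries. A read share is a transcript's reads over all reads of listed transcripts at its locus, so it does not depend on the scaling of the libraries. The sources used here do not say how reads common to overlapping transcripts were assigned, nor whether strand was used, and an isoform change and a change in that assignment cannot be told apart. With glucose at 24 h, the share rose by at least 20 points for 19 of 794 members and fell for 19, 4.79% in all, against 4.5% of all transcripts at such loci (2.2% rising and 2.3% falling). At 48 h it rose for 30 and fell for 25 of 789 members, 6.97% against 6.72% (3.59% and 3.13%). With time in NG it rose for 19 and fell for 26 of 793, 5.67% against 5.89% (2.76% and 3.13%). With time in HG it rose for 27 and fell for 28 of 799, 6.88% against 6.56% (3.37% and 3.19%). The members were thus close to the background in each comparison.

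Most shares changed little. The median absolute change was 2.05 and 2.63 points with glucose at 24 h and 48 h, and 2.09 and 3.15 points with time in NG and HG. The 95% counting interval of the change left out 0 for 189, 287, 209 and 310 members in the same order. A single library per group gives no measure of how far shares vary between cultures, so these counts do not separate a condition from that spread. They have no background over all transcripts here. The moved shares belonged to fewer loci than members, 26, 36, 30 and 33 in the same order, because a gain of 1 isoform is a loss of another.

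A pair of overlapping isoforms on chromosome 6 replaced each other almost completely. NONRATT024781.2 (chromosome 6, 6696170 to 6709782, 821 nt) and NONRATT024782.2 (6696340 to 6709774, 766 nt) cover nearly the same span and were the only listed transcripts of their locus. NONRATT024781.2 had 1003 reads in NG and 115 in HG at 24 h, and 110 in NG and 1284 in HG at 48 h. NONRATT024782.2 had 12, 454, 518 and 9 reads in the same order. NG at 24 h and HG at 48 h were therefore high for the first isoform and low for the second, and the remaining 2 libraries were the reverse. The share of NONRATT024781.2 fell by 78.6 points with glucose at 24 h (interval of the change -81.7 to -75.0) and rose by 81.8 points at 48 h (78.6 to 84.6). The locus total was at 85.5 and 36.3 CPM at 24 h and at 42.3 and 90.9 CPM at 48 h, NG first.

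NONRATT030593.2 (chromosome X, 71552333 to 71555281, 2886 nt) showed the same division of the libraries. It had 1 read in NG and 537 in HG at 24 h, and 610 in NG and 5 in HG at 48 h. NONRATT030591.2, which overlaps its start (71540931 to 71552996), had 182, 157, 139 and 201 reads and so differed far less. The share of NONRATT030593.2 rose by 74.0 points with glucose at 24 h (70.0 to 77.1) and fell by 75.7 points at 48 h (interval of the change -78.8 to -71.6). Its own appearance carried the locus total, which was 2.67 times as high in HG as in NG at 24 h and 0.308 times at 48 h. By FPKM, which corrects for the length of this long transcript, the share changes were smaller, 47.1 and -49.5 points.

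At other loci a single library differed. NONRATT005600.2 (chromosome 10, 56527323 to 56531443, 733 nt) had 1156, 28, 2214 and 1244 reads in NG 24 h, HG 24 h, NG 48 h and HG 48 h. The low library was HG at 24 h. Its partners NONRATT005602.2, with 123, 177, 167 and 88 reads, and NONRATT005601.2, with 67, 103, 62 and 62 reads, did not fall there. The share of NONRATT005600.2 fell by 76.8 points with glucose at 24 h (interval of the change -80.0 to -72.6) and the locus total was 0.174 times as high. At 48 h its share was 90.6% in NG and 89.2% in HG, a change whose interval held 0 (-3.44 to 0.563), and with time in HG it rose by 80.1 points (76.0 to 83.3).

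NONRATT024835.2 (chromosome 6, 23434628 to 23443880, 864 nt) had 6, 186, 7 and 9 reads in the same order, so HG at 24 h alone was high. NONRATT024834.2, which overlaps its start, had 187, 127, 265 and 195 reads. The locus total was 16.2, 20, 18.3 and 14.3 CPM, while the share of NONRATT024835.2 rose by 56.3 points with glucose at 24 h (49.8 to 61.9) and changed by 1.84 points at 48 h (-1.52 to 5.82).

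In NG at 48 h the exception was NONRATT014572.2 (chromosome 19, 25956769 to 25961106, 1654 nt), which had 1, 25, 437 and 25 reads. NONRATT014573.2 lies within its span (25957648 to 25959755, 709 nt) and had 163, 258, 142 and 360 reads. The longer isoform was high in that library only, and the shorter was lowest there. The share of NONRATT014573.2 rose by 68.3 points with glucose at 48 h (63.5 to 72.3), and that of NONRATT014572.2 rose by 73.4 points with time in NG (68.8 to 76.8).

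HG at 48 h differed at the locus of NONRATT005474.2 (chromosome 10, 45563313 to 45579139, 1014 nt), which had 831, 1974 and 1967 reads in the other 3 libraries and was not listed there. Against a floor of 3 counts per library it was 628-fold lower than in NG at 48 h and 598-fold lower than in HG at 24 h. The counting intervals began at 510-fold and 486-fold. NONRATT005475.2, a companion of a single block inside its span (45563441 to 45565140), had 238, 197 and 218 reads in those libraries and 488 in HG at 48 h, and NONRATT005476.2, a further member, had 100, 127, 100 and 47. The locus total was 0.246 times as high in HG as in NG at 48 h, and the single-block transcript took 90.5% of the reads in HG.

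**Figure D2:**
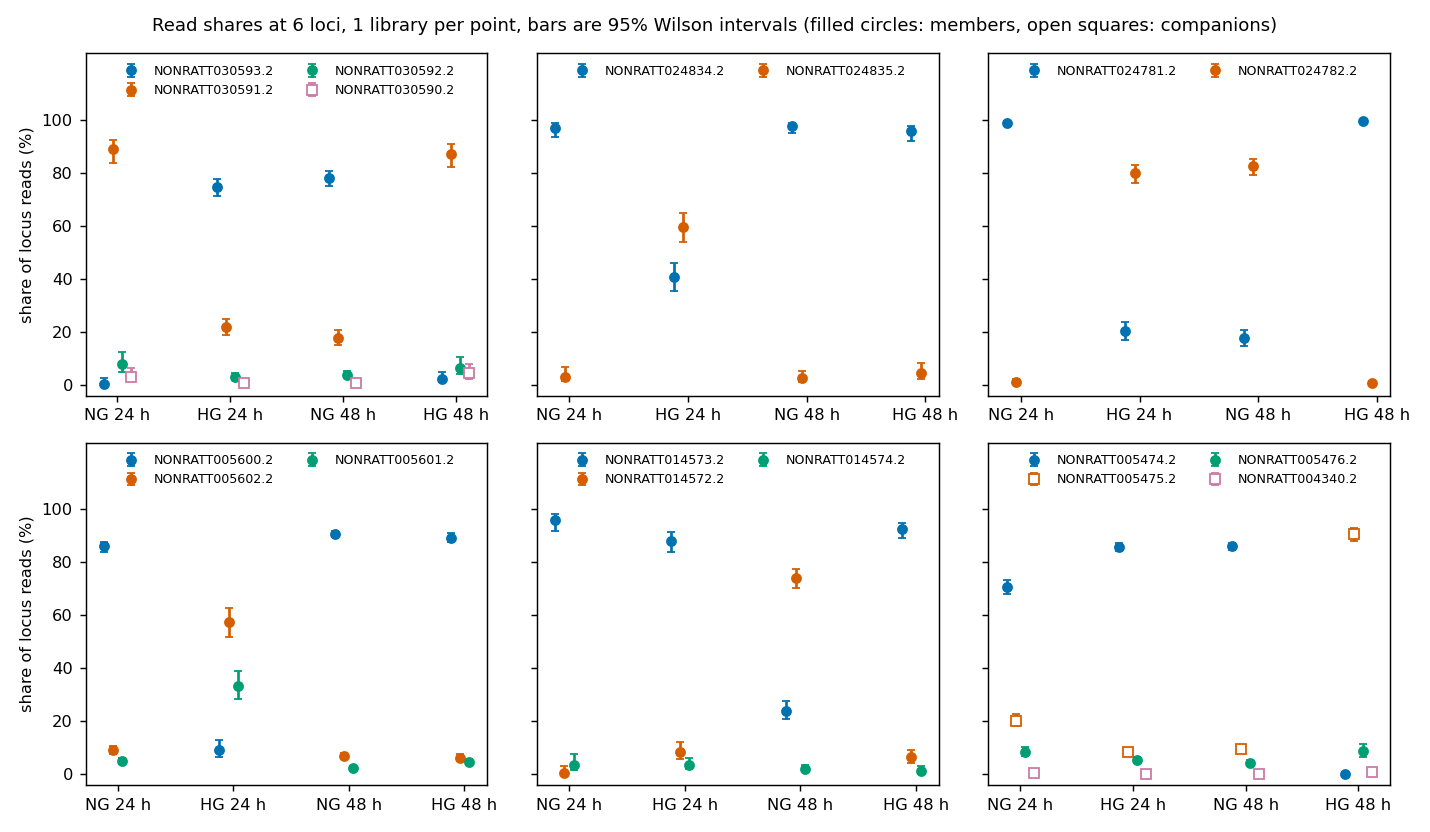
Read share of each transcript (vertical axis, % of locus reads) in the 4 libraries (horizontal axis) at 6 loci with the largest share changes with glucose, with 95% Wilson intervals; filled circles are members and open squares companions. At the top left and top right NG 24 h pairs with HG 48 h, and at the other 4 loci a single library stands apart.

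The time comparisons named 2 further loci. At that of NONRATT015019.2 (chromosome 2, 44279291 to 44294436), this member had 158, 3, 6 and 0 reads and NONRATT015017.2 had 142, 471, 443 and 442. NG at 24 h was the only library with both isoforms in quantity. The share of NONRATT015019.2 fell by 51.2 points with time in NG (interval of the change -56.8 to -45.3), while the locus total stayed between 25.3 and 31.1 CPM. NONRATT024884.2 (chromosome 6, 27578447 to 27589496, 274 nt) had 79, 100, 91 and 67 reads, with little difference between libraries. Its companion NONRATT024883.2 (27565694 to 27582980) was not listed at 24 h in either medium and had 478 reads in NG and 707 in HG at 48 h. The share of NONRATT024884.2 fell by 91.3 points with time in HG (interval of the change -93.1 to -87.0) although its own level was within 2-fold, because the locus total was 8.52 times as high. NONRATT024883.2 is no member, since it was not listed in NG at 24 h.

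Across all 721 members with shares in every library, 97 (13.5%), at 58 loci, had a share that ranged over at least 20 points. 331 ranged over less than 5 points, and 21 over at least 50. The libraries were divided at the widest gap among the 4 shares of each of the 97. For 72 members 1 library stood apart from the other 3, which was NG at 24 h for 12, HG at 24 h for 14, NG at 48 h for 12 and HG at 48 h for 34. In HG at 48 h the share was high for 18 of these and low for 16. The gap divided the media for 3 members, the times for 8, and NG 24 h with HG 48 h from the other 2 libraries for 14. Members of a locus are linked, so these counts are not independent. No such figures over all transcripts at these loci are given here, so the pattern is not shown to be particular to the members. Without HG at 48 h, 61 members ranged over at least 20 points, and without any of the others 73 to 79.

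**Figure D3:**
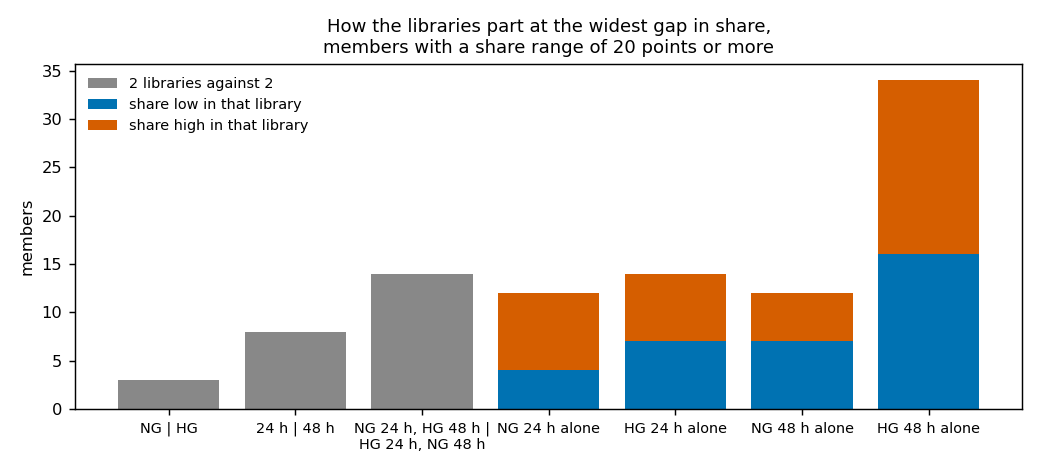
Number of members (vertical axis) whose 4 read shares divide at the widest gap by medium, by time, crosswise or by 1 library (horizontal axis), among the 97 members with a share range of at least 20 points. HG at 48 h stands apart for 34 members, and the media are divided for 3.

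The total of a locus with a moved share varied more than that of other loci. It stayed within 2-fold over the 4 libraries at 44 of the 58 loci, with a median range of 0.64 log2, and at 259 of the 272 loci with no such member, with a median range of 0.41. The total includes the isoform that moved, so the 2 measures are linked and no test was made.

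Share changes of at least 20 points seldom went the same way in both glucose comparisons or in both time comparisons. The 2 glucose comparisons have no library in common. Of 70 members whose share moved at least 20 points with glucose at either time, 2 rose and 2 fell at both, and 9 moved at least 20 points in opposite directions. Of 71 with time, 1 rose and 4 fell in both media, and 10 moved oppositely. The same was counted by the intervals, whatever the size of the change. Of 94 members whose counting interval left out 0 at both times with glucose, 39 moved the same way and 55 oppositely, and with time the counts were 58 and 56 of 114. Taking the member of most reads at each of the 330 loci, Pearson's r of its share changes at 24 h and 48 h was -0.35 and Spearman's rho -0.10. Among the 293 loci where both changes were under 20 points these values were -0.01 and -0.03, so the negative r rests on the few loci with large changes. With time r was -0.22 and rho 0.05, and 0.02 and 0.04 over 294 loci. These describe loci of the same 4 libraries, which are not independent replicates. No figures over all transcripts at such loci stand beside these share counts, so they are not shown to be particular to the members.

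**Figure D4:**
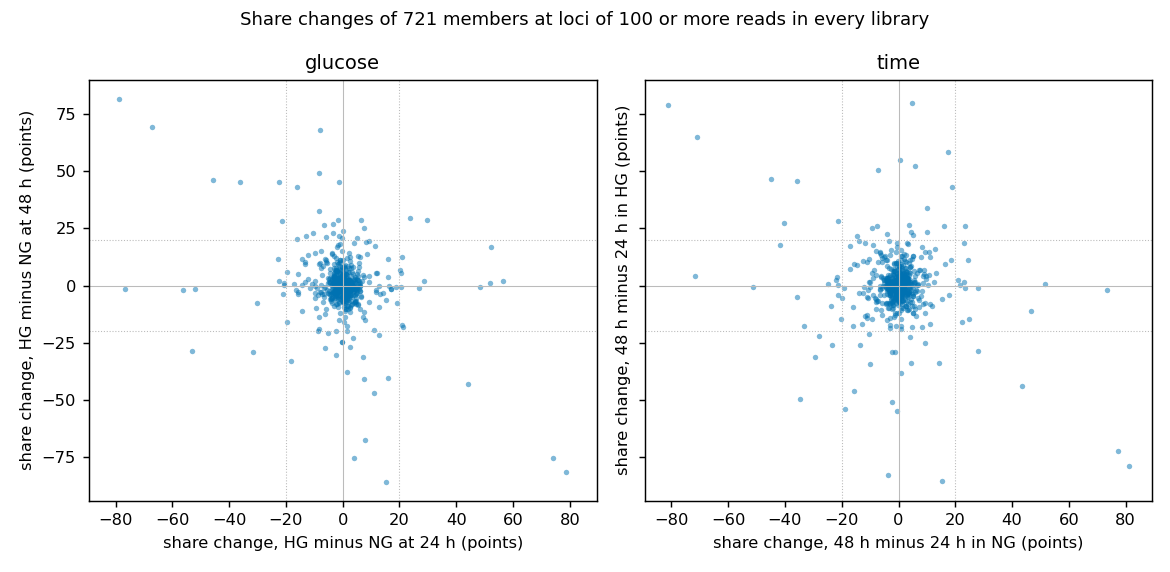
Change of read share in points for 721 members, with glucose at 24 h against 48 h (left) and with time in NG against HG (right), with dotted lines at 20 points. Most points lie near the centre or along 1 axis, and the points at the far upper left and lower right, up to 81.8 points, are the crosswise loci.

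The members whose share moved the same way with glucose at both times included NONRATT004044.2 (chromosome 10, 852982 to 859183, 739 nt). It had 49 reads in NG and 6 in HG at 24 h, and 55 in NG and 13 in HG at 48 h. NONRATT004042.2, a longer isoform with the same end (837324 to 859183, 3286 nt), had 90, 175, 92 and 155 reads in the same order. The shorter isoform was low in both HG libraries and the longer was high in both, with no overlap between the media. NONRATT004044.2 was named for moving the same way at both times, so this separation is no independent support. The locus total stayed between 10.2 and 12.2 CPM. The share of NONRATT004044.2 fell by 31.5 points at 24 h (interval of the change -39.9 to -23.3) and fell by 28.9 points at 48 h (-37.4 to -20.1). In edgeR's test of shares over both times its adjusted p was 0.336.

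NONRATT025586.2 (chromosome 7, 12535059 to 12536794) had 141 reads in NG and 0 in HG at 24 h, and 211 in NG and 106 in HG at 48 h, with NONRATT025585.2 at 113, 217, 70 and 100. Its share fell by 53.2 points at 24 h (interval of the change -59.1 to -47.0) and by 28.7 points at 48 h (-36.5 to -20.5). With time its share rose by 18.8 points in NG and by 43.3 points in HG, for which it was also named. HG at 24 h, with 0 reads, enters both the glucose and the time change. NONRATT013336.2 (chromosome 18, 28397387 to 28415107) rose in share by 23.5 points at 24 h (19.1 to 27.9) and by 29.7 points at 48 h (26.8 to 32.6), with 312, 498, 52 and 388 reads in the order used above. With time its share fell by 28.2 points in NG and by 22.0 points in HG. The share it gained with glucose was lost by different partners. NONRATT013337.2 had 611, 293, 898 and 684 reads, and NONRATT013334.2 had 16, 12, 338 and 3, so the largest loss of share was that of the former at 24 h and that of the latter at 48 h. In edgeR's test of shares with glucose, NONRATT025586.2 and NONRATT013336.2 each had an adjusted p of 0.99995.

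The locus of NONRATT014517.2 (chromosome 19, 19898570 to 19913541, 1806 nt) held 9 listed transcripts. That member had 213 reads in NG and 259 in HG at 24 h, and 220 in NG and 221 in HG at 48 h. NONRATT014518.2 (19899539 to 19913553, 772 nt) had 62 and 0 reads at 24 h and 51 and 1 at 48 h. The longer isoform was nearly level, and the shorter was present in both NG libraries and nearly absent from both HG libraries. The share of NONRATT014517.2 rose by 21.0 points at 24 h (14.5 to 27.2) and by 12.5 points at 48 h (5.58 to 19.2). Its adjusted p in edgeR's test of shares with glucose was 0.99995. NONRATT014518.2, a smaller share of this locus, had the lowest adjusted p of any member for a change of share with glucose in edgeR's fit (adjusted p = 0.107).

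With time, the share of NONRATT022729.2 (chromosome 5, 153261444 to 153264030, 1555 nt) rose in both media. It had 84 and 79 reads in NG and HG at 24 h and 203 and 158 at 48 h, while NONRATT022728.2, the other transcript of the locus, had 188, 225, 171 and 146. The 2 times did not overlap for either isoform's share, a separation favoured by the naming of this member for a change in both media. The share of NONRATT022729.2 rose by 23.4 points in NG (15.8 to 30.6) and by 26.0 points in HG (18.3 to 33.2), and the locus total was 1.10 times as high at 48 h in each medium. NONRATT007688.2 (chromosome 12, 2588821 to 2590435) had 108 and 144 reads at 24 h and 20 and 14 at 48 h, and its share fell by 29.5 points in NG (interval of the change -35.8 to -22.9) and by 31.1 points in HG (-37.0 to -24.4). NONRATT027438.2 (chromosome 8, 13861289 to 13871354) had 230 and 109 reads at 24 h and 68 and 0 at 48 h, with falls of 34.8 points in NG and 49.5 points in HG, and was also lower in HG than in NG at each time. In edgeR's test of shares with time, the adjusted p was 0.99995 for NONRATT022729.2, 0.242 for NONRATT007688.2 and 0.999 for NONRATT027438.2.

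In levels, 5 members were at least 2-fold higher and 12 lower with glucose at both times, and 28 passed 2-fold in opposite directions. With time, 8 were higher and 19 lower in both media, and 22 moved oppositely. With glucose the higher, lower and opposite members were 0.266%, 0.637% and 1.49% of the set, against 0.382%, 0.546% and 0.929% of all measured transcripts. With time they were 0.425%, 1.01% and 1.17%, against 0.423%, 0.601% and 0.806%. These differences were not tested. Among the totals of loci with members, 4 were higher and 6 lower with glucose at both times with 8 opposite. With time in both media 5 were higher and 9 lower, with 6 opposite. These locus counts have no background over all loci here.

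The members named for lower levels in HG at both times dominated their loci in NG. NONRATT021491.2 (chromosome 4, 100221871 to 100223870, 1477 nt) had 226 reads in NG and 25 in HG at 24 h, and 339 in NG and 28 in HG at 48 h. It was 11.9-fold lower in HG at 24 h (7.87 to 18.8) and 11.6-fold lower at 48 h (7.88 to 17.7), while NONRATT021493.2, which overlaps its end, had 7, 8, 9 and 9 reads. NONRATT018798.2 (chromosome 3, 151126712 to 151151158, 6872 nt, the longest member) had 293 reads at 24 h and 178 at 48 h in NG and was not listed in HG. Against a floor of 3 counts it was 129-fold lower in HG at 24 h and 56.8-fold lower at 48 h. Its counting intervals began at 104-fold and 45.7-fold. The single-block companion NONRATT019852.2 had 15, 14, 15 and 13 reads. In both cases the partner's reads were alike in all libraries, while the longer transcript was far higher in both NG libraries.

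NONRATT013691.2 (chromosome 18, 15868124 to 15873229) had 10 and 77 reads in NG and HG at 24 h and 11 and 77 at 48 h. The ratio of HG to NG was 5.84 at 24 h (3.01 to 12.7) and 7.31 at 48 h (3.87 to 15.3). NONRATT004914.2 (chromosome 10, 89352835 to 89356562) had 49 and 204 reads at 24 h and 59 and 214 at 48 h, with ratios of 3.16 (2.30 to 4.41) and 3.79 (2.83 to 5.14). Both HG libraries lay above both NG libraries for each of these members, which were named for higher levels in HG at both times. The companion of NONRATT004914.2, NONRATT004915.2, had 4 and 33 reads at 24 h and 1 and 17 at 48 h, so both transcripts of this locus were higher in HG at both times.

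With time, 2 of the named members were higher and 2 lower at 48 h in both media. NONRATT024745.2 (chromosome 6, 963902 to 988572, 1368 nt) had 1 read in each medium at 24 h and 515 reads in NG and 505 in HG at 48 h. Its level was 34.7 CPM in NG and 35.5 CPM in HG at 48 h, and the ratio to 24 h was 412 in NG (73.6 to 16295) and 556 in HG (99.3 to 21993). NONRATT015318.2 (chromosome 2, 150728415 to 150755696) had 2 and 3 reads at 24 h and 59 and 39 at 48 h, while the locus total stayed between 20.5 and 22.8 CPM, mostly from NONRATT015319.2. NONRATT021972.2 (chromosome 4, 179482558 to 179512484, 4545 nt) had 716 and 812 reads at 24 h and 10 and 12 at 48 h, 89.6-fold lower in NG (48.4 to 188) and 61.5-fold lower in HG (35.0 to 119). NONRATT005910.2 (chromosome 10, 82841522 to 82852738) had 112 and 227 reads at 24 h and 0 and 3 at 48 h. Against a floor of 3 counts it was 46.7-fold lower in NG, with a counting interval from 37.4-fold. In HG it was 68.8-fold lower (23.2 to 336). These 4 members were named for the size of such changes in both media, so the lack of overlap between their 24 h and 48 h libraries follows that choice.

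**Figure D5:**
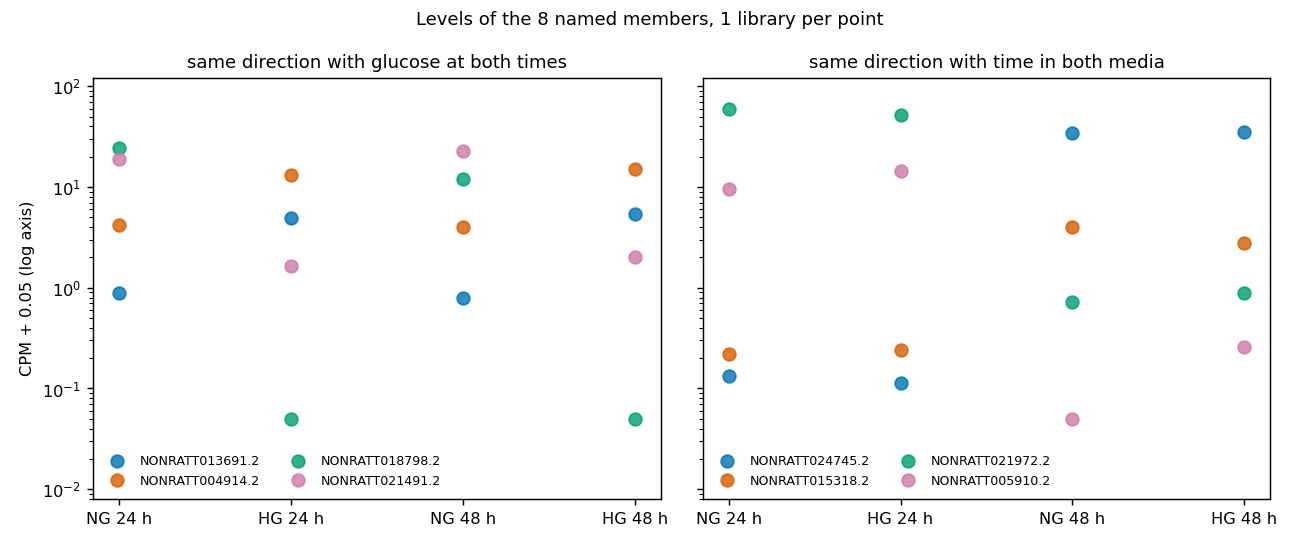
Level (vertical axis, CPM + 0.05, log axis) in each library (horizontal axis) of 8 members whose level moved in the same direction with glucose at both times (left) or with time in both media (right). Each point is 1 library; a point at 0.05 stands for 0 reads.

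A fit over all 4 libraries, with terms for medium and time, was made to ask which changes held across both times or both media. It leaves 1 residual degree of freedom, and the times or media stand in for replicates. For levels, edgeR's quasi-likelihood test called 0 of 1883 members with glucose (adjusted p under 0.05), against 0.0137% of all 7321 measured transcripts, and its unadjusted p was under 0.05 for 37 higher and 67 lower members (5.52%, against 4.75% of all). DESeq2 called 4 members (0.212%, against 0.301% of all), and limma on log2 (FPKM + 1) called 0, against 0.0% of all. With time edgeR called 0 members, against 0.0% of all, with an unadjusted p under 0.05 for 28 higher and 76 lower members (5.52%, against 4.25% of all). DESeq2 called 10 (0.531%, against 0.478% of all) and limma 5 (0.266%, against 0.164%). The lowest adjusted p of edgeR for a member was 0.190 with glucose, for NONRATT021491.2, and 0.0548 with time, for NONRATT024745.2 and NONRATT021972.2.

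For shares, edgeR's test of each transcript against its locus covered 1743 members among 3796 transcripts at loci of at least 2 with at least 10 reads each over the 4 libraries. With glucose it called 0 members, against 0.0% of all transcripts tested, with an unadjusted p under 0.05 for 10 rising and 16 falling members (1.49%, against 2.82% of all), and limma's version called 0, against 0.0% of all. With time it called 0 members, against 0.0527% of all, with an unadjusted p under 0.05 for 16 rising and 19 falling members (2.01%, against 3.32% of all). Limma's version called 1 (0.0574%, against 0.0527% of all). The lowest adjusted p for a member with time was 0.0908 in edgeR's test, for NONRATT008710.2 and NONRATT031004.2. NONRATT024781.2 and NONRATT030593.2 had an adjusted p of 0.99995 for both terms in edgeR's test. Their changes at the 2 times and in the 2 media were opposite. Some members named for changes in the same direction had this value too, NONRATT025586.2, NONRATT013336.2 and NONRATT014517.2 with glucose and NONRATT022729.2 with time. It was lower for NONRATT004044.2 with glucose and for NONRATT007688.2 and NONRATT027438.2 with time. An adjusted p of this size therefore does not mark a change as opposite.

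The member of most reads was compared with the sum of the rest of its locus at the 185 loci where both averaged at least 50 reads. Pearson's r of the 2 log2 ratios was -0.22 and -0.29 with glucose at 24 h and 48 h, and -0.22 in each medium with time, while Spearman's rho lay between -0.06 and 0.02. The lead member passed 2-fold at 13, 20, 11 and 24 of these loci in the 4 comparisons. The rest of the locus passed 2-fold the same way at none of them, and the other way at 2, 3, 2 and 4. The points share libraries and, for the scaling, library totals.

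Of 356 loci with a transcript of at least 100 mean reads, 236 had no such transcript whose share moved 10 points in any comparison, and the total of 14 of these passed 2-fold in a comparison. NONRATT004088.2 (chromosome 10, 14088182 to 14089332, 905 nt) had the largest such change. It stood at 438 CPM in NG and 53.9 CPM in HG at 24 h, and at 52.6 CPM in NG and 14.6 CPM in HG at 48 h, so NG at 24 h was highest and HG at 48 h lowest. It was 8.13-fold lower in HG at 24 h (7.55 to 8.75) and 3.62-fold lower at 48 h (3.10 to 4.24), and its companion had 1 or 2 reads in each library. NONRATT001841.2 (chromosome 1, 267396827 to 267415761, 4260 nt) had 53, 100, 133 and 618 reads in NG 24 h, HG 24 h, NG 48 h and HG 48 h, highest in the last, and was 4.85-fold higher in HG than in NG at 48 h (4.02 to 5.90). Both loci were made up almost wholly of their member, so a constant share there says little of isoforms.

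At the 2 loci with most listed transcripts, the transcript of most reads was the same in every library. The chain around NONRATT013567.2 (chromosome 18, 69240222 to 70348448 in all) joined 18 transcripts, 7 of them members, over 1108227 nt. NONRATT013567.2 had 256, 341, 414 and 318 reads in the 4 libraries, and its share was 49.1%, 50.8%, 58.9% and 53.6%. The chain around NONRATT024628.2 (chromosome 6, 133658933 to 133691132) joined 16 transcripts, 3 of them members. That member's share was 29.0%, 32.1%, 32.7% and 36.8%, and the single-block companion NONRATT024625.2 held 40.6% to 44.0%. NONRATT024617.2, a further member there, had 177, 70, 109 and 19 reads and fell from 14.4% to 5.65% with glucose at 24 h and from 5.58% to 1.55% at 48 h.

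The share range was larger at loci of low depth. The median range over the 4 libraries was 7.48 points for members at loci whose lowest total was 100 to under 200 reads, 7.08 points from 200 to under 500, 3.63 points from 500 to under 1000 and 1.41 points at 1000 or more. A range of at least 20 points was found for 39 of 245, 41 of 236, 10 of 127 and 7 of 113 members in the same order. Members that shared 1 end with a companion or other member, within 15 nt, reached 20 points in 41 of 238 cases, and those that shared both ends in 2 of 21. Members nested in or around another transcript reached it in 33 of 331 cases and those with a partial overlap in 21 of 131. By number of transcripts at the locus, 16 of 162 members reached 20 points at loci of 2 transcripts and 40 of 264 at loci of 5 or more. The part of depth in these differences was not tested.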

How the data were processed

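LncRNA transcripts were measured by stranded total RNA sequencing in 4 libraries, 1 for each medium and time. Per the submitters' processing notes, TopHat2 2.1.0 and Cufflinks were used with the rat build rn6 (Rnor_6.0). The deposited tables give, per the file headers, a read count and an FPKM value for each listed transcript with its position, and its length in the table of NG at 24 h only. A transcript missing from a table was taken as 0. The counting tool and the handling of strand and of reads common to several transcripts are not stated. No identifier carried a gene name, and no sequence of the build was used here.

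Library totals were recovered from count, length and FPKM, and gave 1 read a value of 0.0639 to 0.0842 CPM. Lengths of the 1219 transcripts not listed in NG at 24 h were recovered from the other tables in the same way. The floor of 3 counts equals 0.192 to 0.253 CPM. Levels were compared as log2 (CPM + 1), shares with 95% Wilson and Newcombe intervals, and ratios with exact conditional intervals, which cover counting error only. The fits used edgeR 4.0.16 (quasi-likelihood and its exon-usage test applied to transcripts), with DESeq2 1.42.0 and limma 3.58.1 as alternatives, in R 4.3.3. They had terms for medium and time, except for the alternatives without the other term and those leaving out a library. Benjamini-Hochberg adjustment was over all 7321 transcripts for levels and over all 3796 for shares. Tables were made with Python 3.11.15, pandas 2.3.3 and scipy 1.17.1.

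Members and lists were chosen with earlier results of these data known. Named were, for each comparison, at most 2 members with the largest rise and 2 with the largest fall of share, 1 a locus. For changes shared by both times or both media, at most 2 in each direction were named by the smaller of the changes, for shares and for levels. The 5 members of highest FPKM, the 2 loci with most transcripts and the 2 whose total moved most with shares within 10 points were also named, each with its partners at the locus. Members with the lowest adjusted p in each fit were named after their values were seen. Alternatives covered scaling, pseudocount, filters, share limits, tools and leaving out each library.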

Additional observations from a re-analysis of the deposited data

Results flagged for a closer look

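For 2 members the share moved in opposite directions at the 2 times and in the 2 media. The share of NONRATT030593.2 changed by 74.0 points with glucose at 24 h and by -75.7 points at 48 h. With time it changed by 77.4 points in NG and by -72.3 points in HG. The share of NONRATT024781.2 changed by -78.6 points with glucose at 24 h and by 81.8 points at 48 h, and with time by -81.3 points in NG and by 79.1 points in HG. Each group is 1 library, so the difference between these changes was not tested, and the glucose and time values rest on the same 4 libraries.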

How the results depend on the processing

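No paired analysis was possible because the labels carry no replicate numbers and each group is 1 library; the terms for medium and time already compare the media within each time and the times within each medium. Over the results that answer a comparison, 57 values under an alternative lay within 1.5 times the reported one and 39 did not. These values are counts, also where an alternative changed the number of members or loci compared. A count can therefore lie outside 1.5 times while its percentage stays close to the reported one. Of the named members' share changes and log2 ratios, 70 values under an alternative lay within the counting interval of the reported share change, or as near to the reported ratio as its counting interval is wide to each side on average, 10 did not, and none reversed. With a pseudocount of 0.1 CPM the members beyond 2-fold were 235 and 396 with glucose (24 h, 48 h) and 233 and 416 with time (NG, HG). With a mean FPKM of at least 5 they were 34, 62, 39 and 77 of 570 (5.96%, 10.9%, 6.84% and 13.5%). Locus totals beyond 2-fold numbered 49, 91, 44 and 98 of 1187, with no background over all loci. Members whose share moved numbered 67 of 1159, 108 of 1156, 84 of 1160 and 88 of 1165 with loci of 50 reads (5.78%, 9.34%, 7.24% and 7.55%). With loci of 500 reads they numbered 8 of 261, 10 of 273, 10 of 261 and 9 of 266 (3.07%, 3.66%, 3.83% and 3.38%). With a limit of 10 points they numbered 91 of 794, 129 of 789, 103 of 793 and 157 of 799. These alternatives have no background over all transcripts here. Members called for levels were 4 (glucose) and 10 (time) in DESeq2, of 22 and 35 among all 7321 transcripts. They were 8 and 19 with no filter on low FPKM, of 45 and 71 among 17934, and 5 in limma with time, of 12. For shares limma gave 1 with time, of 2 among 3796. Without the other term, an alternative chosen after seeing the data, edgeR called 3 for levels with time (of 11), and 1 and 2 for shares with glucose and time (of 1 and 7). Leaving out each library in turn gave 0 to 0 for levels with glucose, 0 to 13 with time (13 of 59 without NG at 48 h, 2 of 12 without HG at 48 h), 0 to 3 for shares with glucose (3 of 3 without HG at 48 h) and 0 to 2 with time (2 of 7 and 2 of 4 without NG at 24 h and 48 h). Leaving out each library gave 61 to 79 members with a share range of at least 20 points and 42 to 54 loci whose top differed, both chosen after seeing the data. A member at the median of 30.0 reads gives wide ratios.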
